A study of Mus musculus with 12 samples.

Results

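The genes described here are 34 genes of sterol and fatty acid synthesis, taken by symbol from the pathway that the SREBP transcription factors drive. All 34 were among the 15584 genes of the deposited table, and all 34 were among the 13759 genes that reached 1 FPKM in at least 3 libraries and were tested. They comprise 18 enzymes that turn acetyl-CoA into cholesterol, 5 genes that regulate this pathway or carry its product, and 11 enzymes that make, lengthen or desaturate fatty acids. FPKM scales sequenced fragments to transcript length and library size, so levels of different genes are given per length.

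RNA of mouse corpus callosum, the large myelinated tract between the cerebral hemispheres, was sequenced in 12 libraries, with 3 in each of 4 groups. The WT control group was untreated wild-type tissue and the WT cuprizone group was wild-type tissue of the cuprizone model, in which a copper chelator causes death of oligodendrocytes and loss of myelin. The AHR CKO control and AHR CKO cuprizone groups came from mice lacking the aryl hydrocarbon receptor in microglia, again without and with cuprizone. No deletion or agent shared by all 4 groups is named. Nothing in the labels names the Cre line, the age or sex of the mice, the dose or length of the diet, or any pooling of animals. They also do not say that replicates were separate animals, so the p-values measure the spread between these libraries, which may be technical.

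Cholesterol is a main lipid of myelin, and the brain makes its own because cholesterol of the blood hardly enters it. Oligodendrocytes and astrocytes are the main producers. When sterol in the endoplasmic reticulum is low, SCAP escorts the SREBP proteins to the Golgi, where they are cleaved and freed to enter the nucleus. The protein from Srebf2 acts mainly on sterol genes, and that from Srebf1 mainly on fatty acid genes. INSIG proteins hold SCAP back when sterol is plentiful.

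Several features of the libraries bear on the comparisons. Ahr, the deleted gene, was at 1.41 to 2.57 FPKM over all libraries and its groups overlapped, so its level in whole tissue did not separate the genotypes. Cx3cr1, a microglial receptor gene, was at 22.6 FPKM or more in every WT library. In AHR CKO control it was at 1.05, 9.60 and 0.801 FPKM, and in AHR CKO cuprizone at 1.16, 22.7 and 29.6, so the AHR CKO libraries differed among themselves. All 10 markers of mature oligodendrocytes were present in every library (lowest value 4.65 FPKM). Neuronal markers summed to 1490 to 2443 FPKM, so neuronal RNA was also present in every library. Markers of striatal neurons summed to 272 to 1750 FPKM and of choroid plexus to 42.7 to 3721 FPKM. WT control replicate 3 was the lowest of its group in 17 of 18 sterol enzymes and in 28 of the 34 genes, while it was the lowest in 42.9% of all genes tested. Its oligodendrocyte markers summed to 2322 FPKM, against 3302 and 4260 in the other WT controls, and its striatal markers to 1750, the highest of the 12 libraries. No gene was at 0 in the WT control libraries or in WT cuprizone replicates 1 and 3, while 94 were in WT cuprizone replicate 2. Each AHR CKO control library had 64 to 80 genes at 0, and each AHR CKO cuprizone library 52 to 65. The median gene was at 8.90 to 8.94 FPKM in WT control and 8.26 to 8.64 in AHR CKO control. It was at 8.87 to 9.11 FPKM in WT cuprizone and 8.24 to 9.02 in AHR CKO cuprizone. From 9 to 31 low values per library, depth was put roughly at 11400000 to 14900000 fragments per library. The bounds set on those values limit this answer, so it is a guide only.

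Promoter sequences are shown for 5 of the genes. Any part of their motifs in the changes that follow was not tested. The RefSeq table for GRCm38.p6 held 34 promoters for 27 of the 34 genes. Fdps, Fdft1, Sqle, Stard4, Scd1, Scd2 and Fads1 had no entry. The 250 bases before each start were searched on both strands for CCAAT (the box bound by NF-Y), GGGCGG (the GC box bound by Sp1), TCACNCCAC (a form of the sterol regulatory element) and CACGTG (an E-box). CCAAT occurred in 14 of 18 sterol enzyme promoters, or 77.78%, against 33.85% of the 32851 mouse promoters in the table. By gene, 14 of 15 sterol enzymes had it and Acat2 did not. Among the fatty acid enzymes 4 of 9 promoters held it (44.44%), and among the regulators 4 of 7 (57.14%). GGGCGG occurred in 15 of 18 sterol enzyme promoters (83.33%), 4 of 9 fatty acid promoters and 5 of 7 regulator promoters, against 32.74% of all. The set of all promoters was not matched for base content. CACGTG was in 3 of the 18 against 6.021% of all, and TCACNCCAC in 1 of the 18, that of Hmgcs1, against 1.053% of all. A match is a run of letters and not a measured binding site.

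The 180 bases upstream of both the RefSeq start and the GENCODE gene start are given 5′ to 3′ on the strand of the gene, with CCAAT (or its reverse complement ATTGG) and TCACNCCAC in capitals. No 2 of these motif kinds overlapped, but CCAATTGG in Fasn counts as 2 CCAAT matches, 1 on each strand. Hmgcs1 has both kinds of motif and Mvk has 5 CCAAT matches, the most in the set; in Insig1 and Elovl6 the stretch ends at the GENCODE start, which lies before the RefSeq start used in the search. Insig1 and Fasn show a regulator and a fatty acid enzyme with CCAAT, and Elovl6 a gene with neither.
Hmgcs1, chr13:119690171-119690350, plus strand: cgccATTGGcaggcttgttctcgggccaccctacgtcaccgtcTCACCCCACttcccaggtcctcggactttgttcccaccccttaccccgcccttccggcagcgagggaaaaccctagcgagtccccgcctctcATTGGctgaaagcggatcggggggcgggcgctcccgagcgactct
Mvk, chr5:114444089-114444268, plus strand: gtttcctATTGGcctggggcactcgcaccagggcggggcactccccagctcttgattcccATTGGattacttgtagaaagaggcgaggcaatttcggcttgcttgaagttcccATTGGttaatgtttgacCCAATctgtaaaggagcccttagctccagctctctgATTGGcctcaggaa
Insig1, chr5:28071183-28071362, plus strand: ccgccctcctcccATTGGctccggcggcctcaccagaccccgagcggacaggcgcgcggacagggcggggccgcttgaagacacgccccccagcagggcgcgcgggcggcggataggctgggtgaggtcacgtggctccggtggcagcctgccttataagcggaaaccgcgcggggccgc
Fasn, chr11:120824548-120824727, minus strand: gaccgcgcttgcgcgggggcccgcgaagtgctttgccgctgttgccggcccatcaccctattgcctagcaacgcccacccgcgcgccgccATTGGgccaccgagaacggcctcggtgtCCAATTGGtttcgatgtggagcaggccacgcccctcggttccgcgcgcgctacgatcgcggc
Elovl6, chr3:129532175-129532354, plus strand: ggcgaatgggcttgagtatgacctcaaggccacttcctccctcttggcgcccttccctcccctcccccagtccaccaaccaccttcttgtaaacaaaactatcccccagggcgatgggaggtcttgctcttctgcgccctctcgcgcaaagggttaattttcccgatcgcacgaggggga

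In WT tissue nearly the whole sterol pathway was lower with cuprizone. Of the 18 sterol enzymes, 16 fell, none rose and 2 did not pass the test, while over all genes tested 7.81% fell, 9.08% rose and 16.9% changed either way (limma, Benjamini-Hochberg adjusted p under 0.05). The median log2 change was -0.78 for the enzymes and -0.04 for all genes. Control and cuprizone libraries did not overlap for 16 of the 18 enzymes, against 34.7% of all genes. Summed over the 18 enzymes, WT control libraries held 598, 610.1 and 464 FPKM and WT cuprizone libraries 251, 287 and 289. Of the 28 calls among the 34 genes in this comparison, 24 held when any 1 library was left out and 23 held under every setting tried. In whole tissue, fewer cells of a type and less RNA per cell cannot be told apart.

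Idi1, which isomerises isopentenyl diphosphate into the form used to start chain building (GRCm38 chr13:8885501-8892451), fell most among the enzymes. It was at 15.9, 15.6 and 11.01 FPKM in WT control replicates 1 to 3 and at 3.72, 4.37 and 4.37 in WT cuprizone. Each cuprizone library was far under the lowest control. The mean fell 3.42-fold, from 14.2 ± 2.75 to 4.15 ± 0.374 FPKM (SD, n = 3), with a log2 change of -1.54 ± 0.14 (SE) and a limma adjusted p of 1.73e-05. Hmgcs1, which forms HMG-CoA at the head of the pathway (chr13:119690379-119708260), was at 140.2, 139.6 and 100.2 FPKM in control and 41.2, 48.4 and 51.8 in cuprizone. The groups did not overlap although control replicate 3 was well under the other controls, and the log2 change was -1.40 ± 0.13. Msmo1, which oxidises the methyl groups that are removed from lanosterol (chr8:64718139-64733792), was at 78.7, 87.4 and 68.0 FPKM in control and 27.4, 31.2 and 32.0 in cuprizone. Every cuprizone library was far under the lowest control, and its adjusted p of 4.02e-06 was the smallest among the 34 genes.

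The other enzymes that passed fell by smaller steps, and Pmvk and Tm7sf2 did not pass. Acat2, which joins acetyl-CoA units, fell 1.55-fold, and Mvk and Mvd, a kinase and the decarboxylase of mevalonate, fell 1.499-fold and 1.64-fold. Pmvk, the kinase between them, was at 29.6, 33.3 and 26.1 FPKM in control and 20.9, 25.7 and 26.5 in cuprizone. These groups overlapped, and its adjusted p was 0.238. In the middle of the route Fdps, which makes farnesyl diphosphate, fell 1.84-fold, and Fdft1 (squalene synthase) and Sqle (squalene epoxidase) fell 2.09-fold and 2.03-fold. Lss, which closes the sterol rings, fell 1.64-fold. Among the enzymes that turn lanosterol into cholesterol, Cyp51, a demethylase, fell 2.18-fold, Sc5d, a desaturase, 2.03-fold and Dhcr7, a late reductase, 1.95-fold. Hsd17b7 and Nsdhl, which act with Msmo1 in demethylation, fell 1.75-fold and 1.74-fold, and Ebp, a sterol isomerase, 1.38-fold. Tm7sf2, a sterol reductase, was at 9.73, 9.85 and 8.11 FPKM in control and 5.10, 8.62 and 6.98 in cuprizone, with an adjusted p of 0.23. Mvk lost its call when WT control replicate 1 or 2 or WT cuprizone replicate 1 or 3 was left out (adjusted p up to 0.129).

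**Figure D1:**
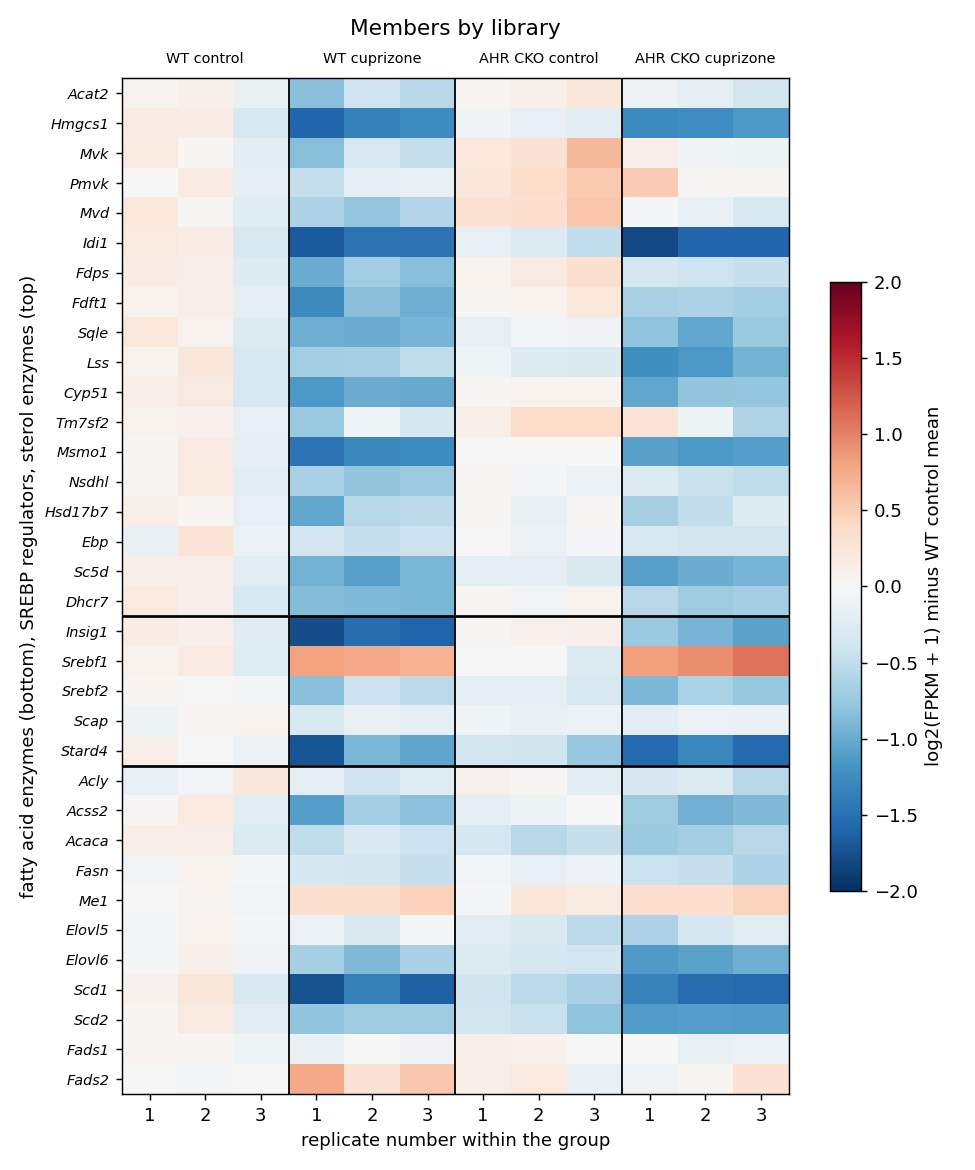
Level of each of the 34 genes (rows) in each of the 12 libraries (columns), as log2(FPKM + 1) minus the mean of the WT controls; blue is lower and red higher, and lines divide the groups of libraries and of genes. The sterol rows are blue in all 6 cuprizone libraries for most enzymes, and Srebf1 is red there.

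The regulators split. Insig1, an SREBP target that holds SCAP in the endoplasmic reticulum (chr5:28071363-28078662), was at 51.4, 50.0005 and 38.9 FPKM in WT control and 12.9, 15.7 and 14.7 in WT cuprizone. All cuprizone libraries were under all controls, and the mean fell 3.24-fold (log2 change -1.62 ± 0.12, adjusted p = 5.2e-06). This was the largest fall of the 34 genes on the log2(FPKM + 1) scale of the test, while by the ratio of mean FPKM Idi1 fell more. Stard4, which carries cholesterol through the cytosol, was at 9.14, 8.38 and 7.57 FPKM in control and 1.83, 3.93 and 3.49 in cuprizone. It fell 2.71-fold (log2 change -1.23 ± 0.19), with cuprizone replicate 1 lowest. Srebf2 fell and Srebf1 rose. Srebf2 (chr15:82147181-82205379) was at 75.3, 73.8 and 71.7 FPKM in control and 40.7, 54.6 and 50.3 in cuprizone (log2 change -0.60 ± 0.11, adjusted p = 0.00175). Srebf1 (chr11:60199089-60222581) was at 23.9, 25.5 and 19.1 FPKM in control and 40.4, 39.1 and 37.2 in cuprizone (log2 change 0.75 ± 0.12, adjusted p = 0.000655). Neither gene's groups overlapped. The ratio of Srebf2 to Srebf1 FPKM within a library was 2.89 to 3.76 in WT control and 1.01 to 1.39 in WT cuprizone. Srebf1 makes more than 1 transcript form, and the table does not separate them. Scap was at 32.4 to 36.5 FPKM in control and 28.1 to 31.3 in cuprizone, with an adjusted p of 0.0799.

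The fatty acid enzymes moved less evenly. Of 11, 6 fell, 2 rose and 3 did not pass the test, while over all genes 7.81% fell and 9.08% rose. The median log2 change was -0.39 for the 11, against -0.04 for all genes. The desaturase Scd1, which puts the first double bond into saturated fatty acids (chr19:44394455-44407879), was at 175, 195 and 131 FPKM in WT control and 48.4, 63.8 and 52.3 in WT cuprizone. The cuprizone libraries were all under the controls, and the mean fell 3.04-fold (log2 change -1.58 ± 0.15, adjusted p = 1.71e-05). Its neighbour Scd2, the most abundant of the 34 genes per length, was at 822, 906 and 688 FPKM in control and 465, 487 and 491 in cuprizone. Scd2 also fell without overlap, but by 1.67-fold (log2 change -0.73 ± 0.13). The ratio of Scd2 to Scd1 FPKM was 4.66 to 5.25 in WT control and 7.64 to 9.60 in WT cuprizone. Scd1 and Scd2 are close in sequence, and no source used here says how fragments that fit both were divided, so the ratio is uncertain.

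Of the enzymes that supply acetyl-CoA and build or lengthen palmitate, Acss2, Elovl6, Acaca and Fasn fell and Acly did not pass the test. Acss2, which makes acetyl-CoA from acetate, was at 27.8, 31.3 and 23.1 FPKM in control and 12.1, 16.6 and 14.9 in cuprizone, a fall of 1.88-fold without overlap. Elovl6, which lengthens palmitate, fell 1.72-fold (17.5, 19.2 and 16.9 FPKM against 10.9, 9.20 and 11.1). Acaca, which makes malonyl-CoA, fell 1.38-fold and Fasn, the fatty acid synthase, 1.32-fold. The Acaca call was lost when WT control replicate 1 or 2 or WT cuprizone replicate 1 or 3 was left out (adjusted p up to 0.116). Acly, which makes acetyl-CoA from citrate, was at 42.0 to 55.3 FPKM in control and 35.4 to 41.3 in cuprizone, with an adjusted p of 0.141. Elovl5 and Fads1, which lengthen and desaturate polyunsaturated fatty acids, had adjusted p values of 0.463 and 0.624.

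Fads2 and Me1 rose. Fads2, the first desaturase of polyunsaturated fatty acid synthesis (chr19:10062765-10101746), was at 78.2, 76.5 and 78.5 FPKM in WT control and 132, 95.1 and 114 in WT cuprizone. The controls were nearly equal and each cuprizone library was above them (log2 change 0.53 ± 0.13, adjusted p = 0.0142). Me1, the malic enzyme that supplies NADPH, was at 22.5, 23.2 and 21.5 FPKM in control and 28.2, 28.1 and 31.4 in cuprizone (log2 change 0.37 ± 0.09, adjusted p = 0.0109). Without WT cuprizone replicate 1 the adjusted p of Fads2 was 0.064, and without replicate 3 that of Me1 was 0.0552. Fads1 and Fads2 lie side by side in the genome, and Fads1 was at 97.7, 97.8 and 89.4 FPKM in control and 86.5, 94.8 and 90.7 in cuprizone.

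**Figure D2:**
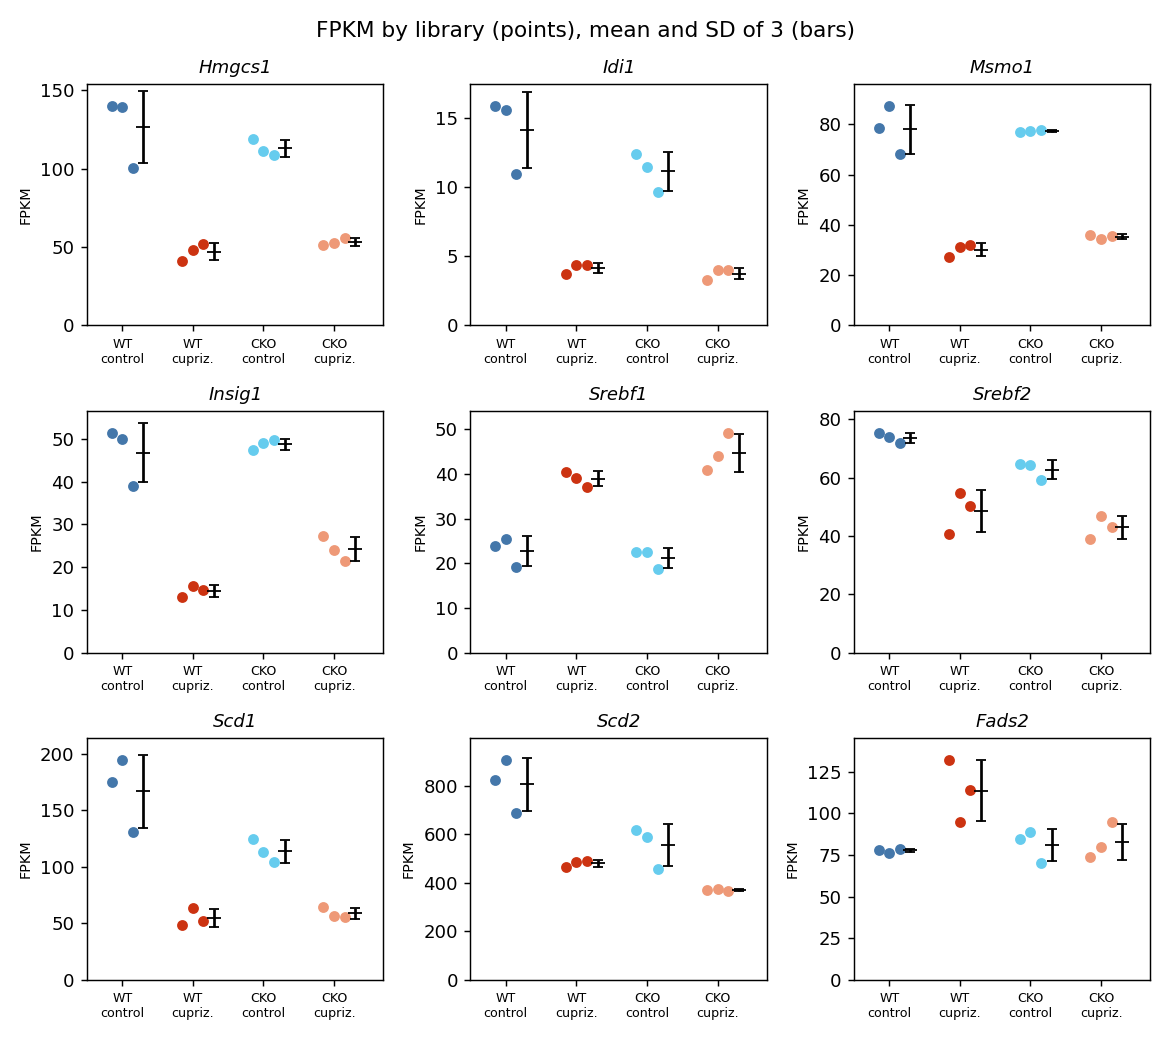
FPKM of 9 genes in the 12 libraries (points, left to right replicates 1 to 3), with mean and SD of each group of 3 beside them; each axis starts at 0. Hmgcs1, Idi1, Msmo1, Insig1, Srebf2, Scd1 and Scd2 are lower in cuprizone than in control in both genotypes, Srebf1 is higher, and Fads2 is above its controls in WT cuprizone.

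Markers of other cells moved in the same comparison. All 10 markers of mature oligodendrocytes fell, with a median log2 change of -2.17, and their summed level was 2322 to 4260 FPKM in WT control and 656 to 901 in WT cuprizone, with none at 0. The astrocyte markers summed to 1458 to 1645 and 2633 to 3212 FPKM, with 5 of 8 called higher, and the microglial markers to 311 to 343 and 1078 to 1579, again with 5 of 8 called higher. The 4 choroid plexus markers had a median log2 change of 1.21, with sums of 42.7 to 153 FPKM in WT control and 56.5 to 2970 in WT cuprizone. The 4 striatal markers had a median of -1.01, with sums of 408 to 1750 and 272 to 534 FPKM. No marker of these 2 lists passed the adjusted test. The part of these shifts in the sterol and fatty acid results was not tested.

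In AHR CKO tissue cuprizone moved the same branches the same way. Of the 18 sterol enzymes 11 fell, none rose and 7 did not pass, while over all genes 2.98% fell, 7.22% rose and 10.2% changed either way. The median log2 change was -0.63 for the enzymes and -0.01 for all genes, and the groups did not overlap for 16 of the 18, against 28.9% of all genes. The summed sterol enzymes were at 552, 555 and 576 FPKM in AHR CKO control and 345, 323 and 326 in AHR CKO cuprizone. The WT and AHR CKO cuprizone comparisons share no library. Both used the same estimate of each gene's spread, from all 12 libraries, so their calls are not independent. All 19 of the 34 genes that fell in AHR CKO were among the 25 that fell in WT (76% of the WT list and 100% of the AHR CKO list). The 1 gene that rose, Srebf1, was among the 3 that rose in WT. The same overlap was not counted over all genes, so these shares are not shown to be particular to the 34 genes.

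Idi1 was again the lowest relative to control, at 12.4, 11.5 and 9.64 FPKM in AHR CKO control and 3.28, 3.998 and 4.01 in AHR CKO cuprizone (log2 change -1.35 ± 0.14, adjusted p = 8.64e-05). Msmo1 was at 77.0, 77.2 and 77.6 FPKM and then at 36.0, 34.3 and 35.6, and Hmgcs1 at 119, 111 and 108 and then at 51.0, 52.3 and 56.1. In these 3 genes no cuprizone library came near a control. Fdps, Fdft1, Sqle, Lss, Cyp51, Sc5d, Dhcr7 and Mvd also fell, with log2 changes from -0.55 (Mvd) to -0.92 (Cyp51). The Mvd call was lost without AHR CKO cuprizone replicate 3 (adjusted p = 0.0564). The 7 enzymes that did not pass were Acat2, Mvk, Pmvk, Tm7sf2, Nsdhl, Hsd17b7 and Ebp, with log2 differences from -0.19 (Pmvk) to -0.43 (Hsd17b7) and adjusted p from 0.0597 (Nsdhl) to 0.477 (Pmvk).

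Insig1 was at 47.4, 49.1 and 49.7 FPKM in AHR CKO control and 27.2, 23.97 and 21.5 in AHR CKO cuprizone. It fell without overlap (log2 change -0.98 ± 0.12, adjusted p = 0.000206). Srebf1 rose from 22.5, 22.5 and 18.7 to 40.9, 44.1 and 49.2 FPKM (log2 change 1.04 ± 0.12, adjusted p = 0.000122), and Srebf2 fell from 64.8, 64.3 and 59.1 to 38.9, 46.9 and 43.0. The Srebf2 to Srebf1 ratio was 2.85 to 3.16 in AHR CKO control and 0.873 to 1.06 in AHR CKO cuprizone. Stard4 fell by 0.95 on the log2 scale, and Scap had an adjusted p of 0.785.

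Among the fatty acid enzymes 5 of 11 fell in AHR CKO and none rose, while over all genes 2.98% fell and 7.22% rose. The median log2 change was -0.36 for the 11, against -0.01 for all genes. Scd1 was at 124, 113 and 104 FPKM in control and 64.3, 56.9 and 55.2 in cuprizone (log2 change -0.94 ± 0.15, adjusted p = 0.00113). Scd2 fell by 0.57 on the log2 scale, Acss2 by 0.75, Elovl6 by 0.73 and Fasn by 0.38. Scd2 lost its call on leaving out AHR CKO control replicate 1 or 2 (adjusted p up to 0.0775), and the Fasn call after a correction for transcript length and GC content (adjusted p = 0.0845). Fads2 was at 84.3, 88.8 and 70.3 FPKM in control and 74.1, 79.8 and 94.9 in cuprizone, with overlapping groups and an adjusted p of 0.918. Me1 had a log2 difference of 0.24 and an adjusted p of 0.101.

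The oligodendrocyte markers moved here too, 9 of 10 called lower with a median log2 change of -1.11, and their summed level was 2180 to 2419 FPKM in AHR CKO control and 958 to 1139 in AHR CKO cuprizone. Of the astrocyte markers 5 of 8 were called higher (median log2 change 0.65), with sums of 1468 to 1506 and 2261 to 2968 FPKM, and of the microglial markers 5 of 8 (1.39), with sums of 286 to 299 and 752 to 1215. Choroid plexus and striatal markers had median log2 changes of -0.08 and -0.49, with none called. The part of all these cells in the result was not tested. Leaving out AHR CKO control replicate 2 or AHR CKO cuprizone replicate 1, the libraries that differed from their group in Cx3cr1, left 11 and 12 sterol enzymes called lower.

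**Figure D3:**
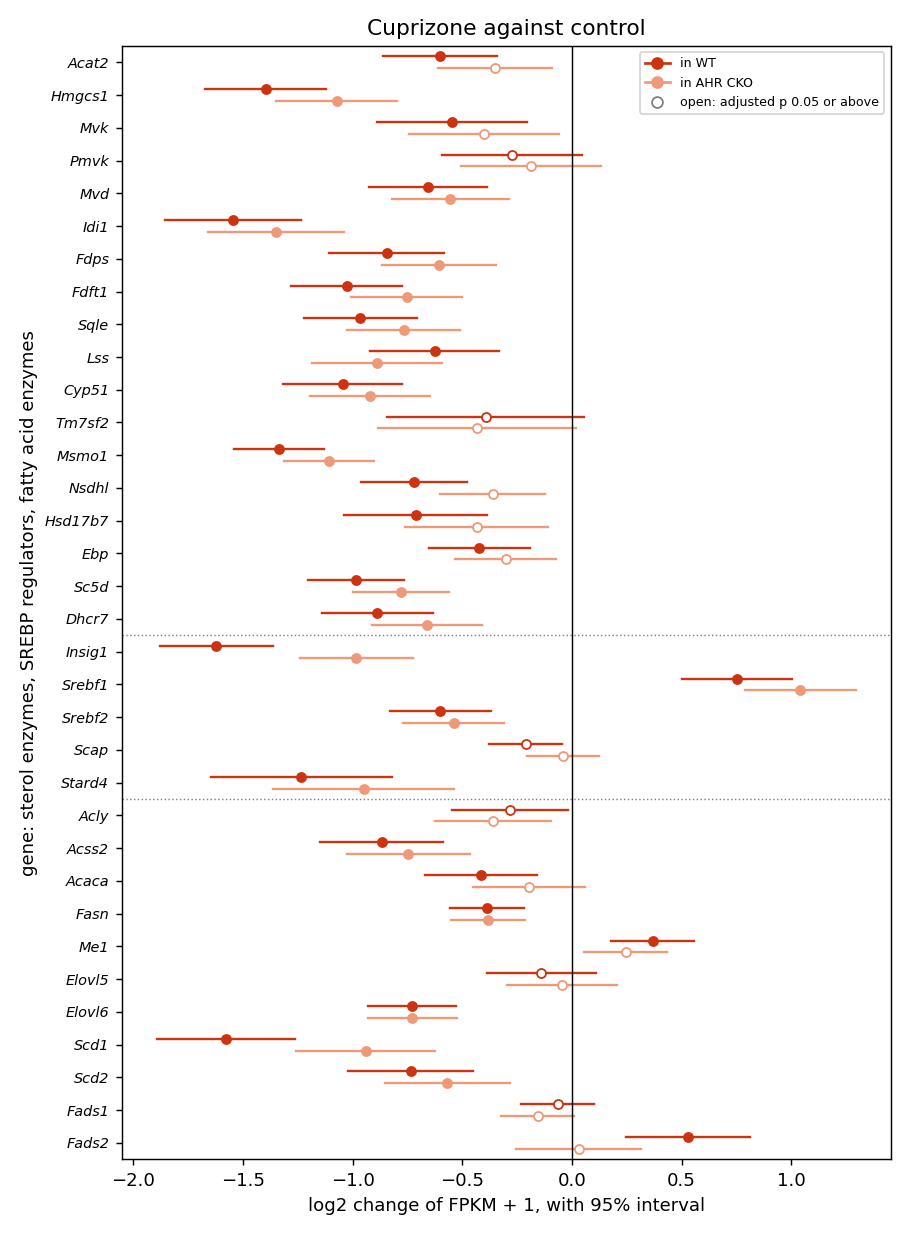
Log2 change from control to cuprizone of each of the 34 genes in WT and in AHR CKO, with 95% intervals from limma; filled points passed an adjusted p of 0.05 and open points did not. The points of all 18 sterol enzymes lie left of 0 in both genotypes, Insig1 and Scd1 lie farther left in WT, and Srebf1 lies right of 0.

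Whether the cuprizone change itself differed between genotypes was tested as an interaction. None of the 34 genes passed, and over all genes 5 passed (0.0363%, with 0.0145% higher and 0.0218% lower). At an unadjusted p under 0.05 there were 4 of the 34, against 1316 of 13759 genes. The interaction was positive, a less negative or more positive change in AHR CKO, for 28 of the 34 genes and for 7614 of all 13759. The largest was that of Insig1, whose log2 change was -1.62 in WT and -0.98 in AHR CKO, a difference of 0.64 with a 95% interval of 0.28 to 1.003 (unadjusted p = 0.0024, adjusted p = 0.256). Without WT control replicate 3 its adjusted p was 0.043, and over all genes 96 passed as higher and 7 as lower. Scd1 differed by 0.64 (adjusted p = 0.332), Fads2 by -0.50 (0.399) and Nsdhl by 0.36 (0.501). Among the oligodendrocyte markers, 10 of 10 had a positive interaction and Opalin and Aspa, a membrane protein of mature oligodendrocytes and the enzyme that splits N-acetylaspartate into acetate, passed the test (log2 2.01 and 1.86).

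In control tissue few of the genes separated the genotypes. None of the 18 sterol enzymes and none of the 5 regulators passed between AHR CKO control and WT control, where 6.19% of all genes did (1.42% higher and 4.76% lower). The calls over all genes went from 196 higher and 655 lower to 22 and 25 with the correction for length and GC content. At an unadjusted p under 0.05 there were 4 of the 18 sterol enzymes, a smaller share than the 3798 of 13759 genes. These were Mvk, Pmvk, Mvd and Sc5d, with log2 differences of 0.39, 0.38, 0.40 and -0.22, and the regulator Stard4 (-0.52) was also under that level. Without WT control replicate 3, Idi1, Sc5d and Scd1 were called lower. The groups did not overlap for 12 of the 34 genes, a share close to the 35.4% of all genes. Of the fatty acid enzymes 2 of 11 were lower in AHR CKO. Scd2 was at 619, 589.6 and 456 FPKM in AHR CKO control against 822, 906 and 688 in WT control (log2 difference -0.54 ± 0.13, adjusted p = 0.0387). Acaca was at 9.47, 8.16 and 8.70 FPKM against 13.7, 13.7 and 10.1 (log2 difference -0.46 ± 0.12, adjusted p = 0.046). In both genes all AHR CKO libraries were under all WT libraries. Scd1 and Elovl6 had log2 differences of -0.53 and -0.33 and adjusted p of 0.0506 and 0.0523.

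Neither call was firm. Scd2 lost it when any of 6 libraries was left out and under 4 of 11 other settings (adjusted p up to 0.154), and Acaca when any of 7 was left out and under 6 of 11 (up to 0.529). These libraries were WT control replicates 1 and 2, WT cuprizone replicate 3, AHR CKO control replicates 2 and 3 and AHR CKO cuprizone replicate 2, and for Acaca also AHR CKO control replicate 1. The oligodendrocyte markers, of which 2 of 10 were called lower, had a median log2 difference of -0.47 in the same comparison. The 4 choroid plexus markers had a median log2 difference of 1.85 (1.39 to 4.12), with sums of 413 to 3558 FPKM in AHR CKO control and 42.7 to 153 in WT control. None of them passed the adjusted test (3 had an unadjusted p under 0.05). The part of these cells in the differences was not tested.

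In cuprizone tissue Insig1 was the clearest difference between the genotypes. It was at 27.2, 23.97 and 21.5 FPKM in AHR CKO cuprizone against 12.9, 15.7 and 14.7 in WT cuprizone. Every AHR CKO library was above every WT library, with a log2 difference of 0.71 ± 0.12 and an adjusted p of 0.00573. The call was kept when each library was left out in turn (adjusted p up to 0.0243) and under the other settings (up to 0.0282). This comparison shares its libraries with both cuprizone comparisons given before.

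The sterol enzymes were uneven in that comparison. Of 18, 6 were higher in AHR CKO cuprizone, 1 was lower and 11 did not pass, against 9.14% of all genes higher, 10.8% lower and 20.0% either way. The median log2 difference was 0.24, against 0.00 for all genes, and the groups did not overlap for 11 of the 18, against 38.8% of all. The higher ones were Acat2, Mvk, Pmvk, Mvd, Fdps and Fdft1, all from the part of the route before squalene is closed into a ring. Their log2 differences were 0.37 (Fdft1) to 0.53 (Mvk). In control tissue those of Mvk, Pmvk and Mvd were already 0.39, 0.38 and 0.40, uncalled but without overlap. Their interactions were 0.15, 0.09 and 0.10. Acat2, Fdps and Fdft1 differed by 0.13, 0.20 and 0.10 in control tissue, with overlap. Mvd was at 16.4, 15.1 and 13.4 FPKM in AHR CKO cuprizone and 10.6, 9.40 and 10.8 in WT cuprizone, and Fdps at 32.1, 30.5 and 29.4 and at 20.1, 24.9 and 22.4. Neither gene's groups overlapped. Lss, which closes that ring, was lower, at 4.07, 4.36 and 5.19 FPKM against 6.31, 6.50 and 7.33 (log2 difference -0.48 ± 0.14, adjusted p = 0.0297). Hmgcs1, Idi1 and Sqle of the same stretch were not called, with log2 differences of 0.17, -0.11 and 0.10.

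These sterol differences depended on how the values were scaled and on single libraries. After the correction for length and GC content none of the 18 enzymes was higher or lower, and after rescaling every library to a common total 1 was higher. That rescaling moved the median of all genes by -0.11, and the calls over all genes went from 1257 higher and 1490 lower to 626 and 2332. The length and GC correction took the calls over all genes to 304 and 497. Without AHR CKO cuprizone replicate 1 or 2 none of the 18 was higher, without WT cuprizone replicate 1 or 3 only 1 was, and without WT control replicate 1 or AHR CKO control replicate 1 or 2 there were 3. The median transcript of the sterol enzymes was 2504 nt long, against 3182 nt for all genes. Of the 11 fatty acid enzymes Elovl6 and Fads2 were lower in AHR CKO cuprizone, where 10.8% of all genes were lower. Elovl6 was at 7.56, 7.92 and 8.62 FPKM against 10.9, 9.20 and 11.1 (adjusted p = 0.0281, and 0.742 after that correction). Fads2 was at 74.1, 79.8 and 94.9 FPKM against 132, 95.1 and 114 (adjusted p = 0.0335), with the nearest libraries at 94.9 and 95.1. Leaving out replicate 1 or 3 of WT cuprizone, or 1 or 2 of AHR CKO cuprizone, ended both calls (adjusted p up to 0.13). Of the oligodendrocyte markers 3 of 10 were higher (median log2 difference 0.50), and microglial markers summed to 752 to 1215 FPKM in AHR CKO cuprizone against 1078 to 1579 in WT cuprizone, with 2 of 8 called lower. No choroid plexus or striatal marker was called, with median log2 differences of 0.48 and 0.93. The part of these cells in the differences was not tested.

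**Figure D4:**
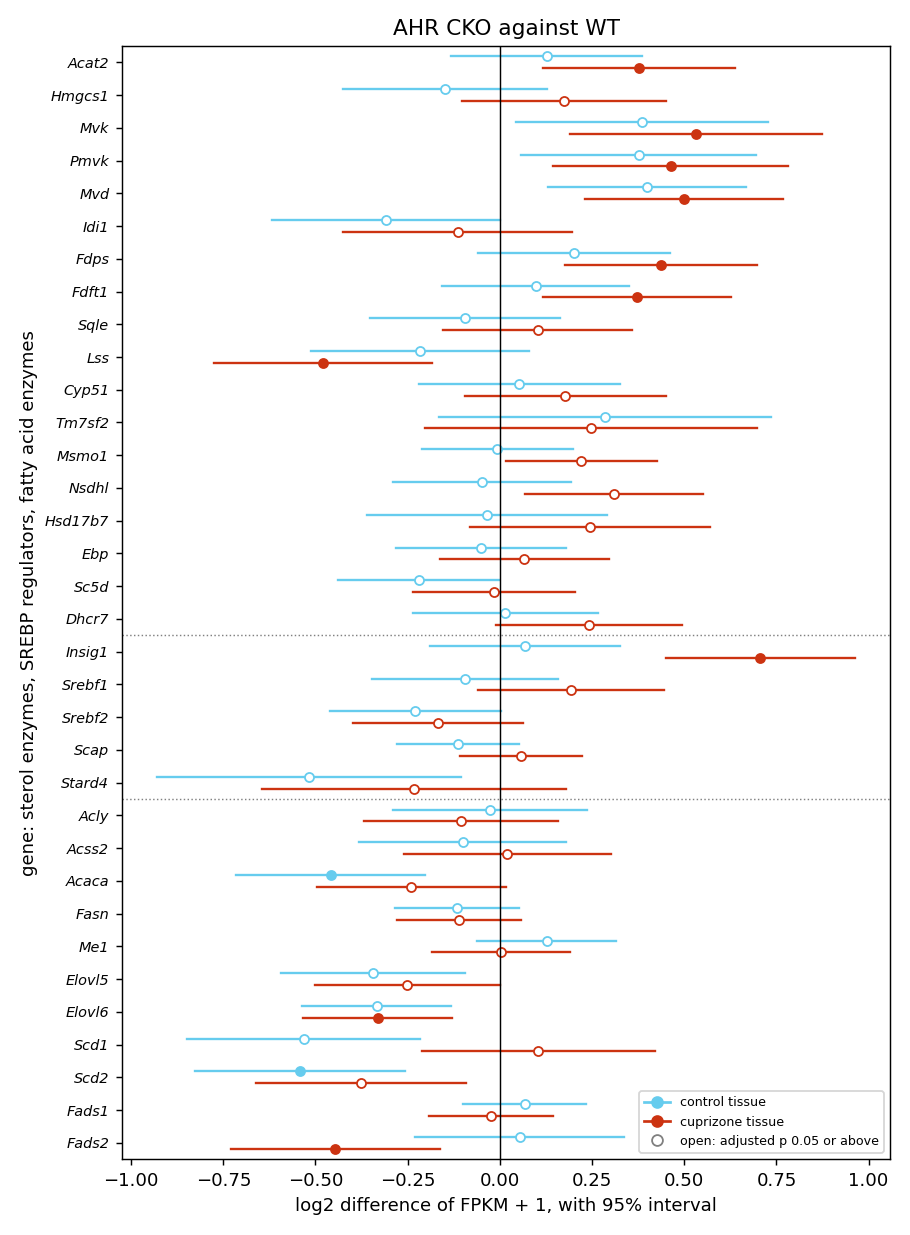
Log2 difference of AHR CKO against WT for each of the 34 genes, in control and in cuprizone tissue, with 95% intervals from limma; filled points passed an adjusted p of 0.05. Insig1 in cuprizone tissue lies farthest from 0, at 0.71, and most control intervals include 0.

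In all 6 cuprizone libraries the sterol branch and the oligodendrocyte markers were lower than in all 6 controls. The median of the sterol enzymes, set against the WT control mean on the log2 scale, was -0.23 to 0.12 in WT control, -0.03 to 0.05 in AHR CKO control, -0.64 to -0.57 in AHR CKO cuprizone and -0.91 to -0.78 in WT cuprizone. AHR CKO control and WT control overlapped, and the AHR CKO and WT cuprizone libraries did not. For the fatty acid enzymes the order of the cuprizone groups was the reverse, with medians of -0.43 to -0.34 in WT cuprizone and -0.62 to -0.45 in AHR CKO cuprizone, and AHR CKO control at -0.21 to -0.17. After rescaling to a common total the median sterol difference between the cuprizone groups was 0.13 in place of 0.24. That of the fatty acid enzymes was -0.24 in place of -0.11. With the length and GC correction the sterol and fatty acid medians were 0.18 and -0.04. In control tissue the median differences between the genotypes were 0.00 for sterol and -0.12 for fatty acid enzymes, and the median interactions were 0.20 and 0.004. No test was made of these medians.

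**Figure D5:**
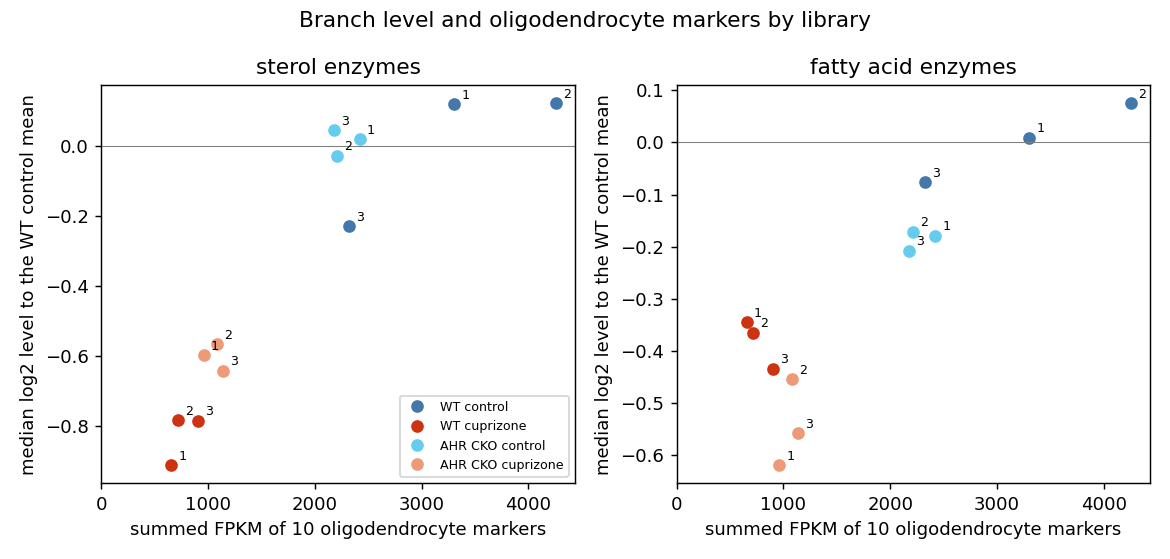
Median log2 level of the 18 sterol enzymes (left) and 11 fatty acid enzymes (right) relative to the WT control mean, against the summed FPKM of 10 oligodendrocyte markers, by library; the number beside each point is its replicate. The 6 cuprizone libraries lie low on both axes in the left panel, and WT cuprizone lies under AHR CKO cuprizone there but not in the right panel.

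Genes of the same pathways outside the 34 were called less uniformly in 1 direction. Of 13 other sterol and SREBP pathway genes 4 fell and 2 rose in WT cuprizone, where 7.81% of all genes fell and 9.08% rose. The median log2 change of the 13 was -0.11. The 4 with the smallest adjusted p were Mylip, an E3 ligase gene that rises with sterol through the liver X receptors, which rose by 1.23 on the log2 scale, Cyb5r3, a cytochrome b5 reductase, which rose by 0.51, and Tmem97, a sterol-responsive membrane protein, and Lbr, a sterol reductase of the nuclear envelope, with changes of -0.64 and -0.57. Acat1 and Erg28 completed the 4 that fell (-0.26 and -0.32), but neither call was firm. That of Erg28 was lost when any of 11 libraries was left out and under 8 of 10 other settings. The Acat1 call was lost when any of 5 libraries was left out and under 1 of 11 other settings. In AHR CKO Cyb5r3 and Mylip rose (log2 change 0.69 and 0.73) and Tmem97 fell (-0.45), where 7.22% of all genes rose and 2.98% fell. The Tmem97 call was lost when any of 4 libraries was left out, and that of Mylip when any of 2 was. Between the control groups none of the 13 passed at an adjusted p under 0.05, and 3 had an unadjusted p under 0.05, again a smaller share than that of all genes. Cyb5r3 and Erg28 had the highest FPKM of the 13 in control tissue. In cuprizone tissue 3 were higher and 2 lower in AHR CKO, where 9.14% of all genes were higher and 10.8% lower. Ggps1, which makes geranylgeranyl diphosphate, had a log2 difference of -0.45 and Por, the electron donor of Cyp51 and Sqle, of 0.33. Those of Mylip, Cyb5r3 and Acat1 were -0.64, 0.28 and 0.22. Mylip was at 16.0 FPKM in WT cuprizone and 9.78 in AHR CKO cuprizone (means of 3), and its call was lost when any of 3 libraries was left out (adjusted p up to 0.092).

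Of 25 other genes of fatty acid synthesis 6 fell and 2 rose in WT cuprizone, where 7.81% of all genes fell and 9.08% rose. Fads6, a desaturase family member, fell by 1.32, Scd3, a further stearoyl-CoA desaturase, by 0.95, and Elovl7, an elongase of long saturated chains, by 1.13 on the log2 scale, while Pgd, a source of NADPH, rose by 0.55, as did Mlxipl, the gene of a glucose-responsive factor, by 0.97. In AHR CKO Fads6 and Scd3 fell (-0.70 and -0.50), and Pgd and Mid1ip1, an activator of acetyl-CoA carboxylase, rose (0.42 and 0.44), as did Mlxipl (0.71). Over all genes 2.98% fell and 7.22% rose there. The calls of Scd3 and Mid1ip1 were each lost when any of 8 libraries was left out. Mlxipl lost its call with any of 7 left out and Pgd with any of 4. Fads6 was also lower in AHR CKO control than in WT control (-0.86, adjusted p = 0.0183). In cuprizone tissue 3 were higher in AHR CKO, the citrate carrier Slc25a1 (0.50), Mcat of mitochondrial fatty acid synthesis (0.46) and Tecr of the elongation cycle (0.44), and 2 were lower, Hacd3 of that cycle (-0.23) and Acsl4, an acyl-CoA synthetase (-0.33). These 5 of 25 are the same share as the 20.0% of all genes called in that comparison. Over both lists of other genes, 10 of 14 calls in WT cuprizone, 2 of 8 in AHR CKO cuprizone, 0 of 1 between the control groups and 0 of 10 between the cuprizone groups held under every setting and with any 1 library left out.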

How the data were processed

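Per the labels' protocols, corpus callosum RNA was purified with RNeasy columns (Qiagen) and libraries were built with the SMARTER mRNA-Seq reagents. The deposited file is a single FPKM table made by the authors, which per the file headers has a gene symbol in each row and a column for each of 12 samples. The submitters' processing notes name GRCm38 (mm10) as the genome. No source used here names the aligner, quantifier, annotation or strandedness. FPKM lets a few very abundant genes shift the others and keeps length trends that differ between libraries. Exons of Fdft1, Cyp51, Tm7sf2, Srebf1, Acss2 and Me1 overlap those of other genes in the table (GENCODE annotation of GRCm38), so their fragments could be shared.

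Values were taken as log2(FPKM + 1), so changes of low genes are understated. Genes at 1 FPKM or more in at least 3 libraries were fitted with limma 3.58.1 in R 4.3.3 (4 group terms, all 12 libraries, trended prior variance). P-values were two-sided and adjusted by the Benjamini-Hochberg method over all 13759 genes within each of 5 comparisons, and the threshold was 0.05. Means ± SD and folds are of FPKM. Depth was estimated from the smallest FPKM steps between 0.05 and 0.12 FPKM times kb, bounds that limit the answer and were set after looking. The fit was tested on simulated data.

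The 34 genes, the other pathway lists (13 and 26 genes, of which 13 and 25 were tested), the marker lists and the motifs were chosen with earlier results of these data known. All 34 genes are followed. Of the other pathway lists, up to 4 genes of smallest adjusted p are named per comparison, or 2 of highest FPKM where none passed. Acat1, Erg28, Mlxipl and Acsl4 complete short lists of calls and were named beside this rule after their values were seen. Alternatives were pseudocount, filter, scaling, weights, prior, replicate block, groups in the fit and each library left out. The length and GC correction (splines of 5 degrees of freedom, 95.4% of genes with a length) was added after seeing the data. Some genes of these pathways are not reported here.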

Additional observations from a re-analysis of the deposited data

How the results depend on the processing

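The calls of cuprizone against control in WT kept their direction in every setting tried, and their counts stayed within 1.5 times except that leaving out single libraries gave 1 to 2 fatty acid enzymes higher. In AHR CKO, sterol enzymes lower went from 11 to 18 with sample quality weights and to 17 with the length and GC correction. Between the control groups, sterol enzymes lower went from 0 to 4 and higher from 0 to 2 with the weights, and leaving out libraries gave 0 to 2 lower. Fatty acid enzymes lower there went from 2 to 0 with no filter, with only the groups compared and with the length and GC correction, to 1 without the variance trend, to 4 with a mean of at least 5 FPKM and to 5 with the weights, and leaving out libraries gave 0 to 5. Between the cuprizone groups, sterol enzymes higher went from 6 to 1 by the common total, 3 without the trend, 2 with only the groups compared and 0 with the length and GC correction, and leaving out libraries gave 0 to 8. Sterol enzymes lower went from 1 to 0 with only the groups compared and with the length and GC correction, and to 0 to 1 on leaving out libraries. Fatty acid enzymes lower went from 2 to 5 with the weights, 0 with only the groups compared and 1 with the length and GC correction, and to 0 to 3 on leaving out libraries. For the interaction, the weights gave 4 sterol enzymes higher, and 1 fatty acid enzyme lower and 2 higher, from 0 each. The causes were not tested. By the common total, the share of higher among calls over all genes moved from 70.8% to 59.0% for cuprizone in AHR CKO. Between the cuprizone groups it moved from 45.8% to 21.2% in that setting. With the length and GC correction it moved from 23.0% to 46.8% between the control groups. That correction took the calls over all genes between the control groups from 196 higher and 655 lower to 22 and 25. Between the cuprizone groups it took them from 1257 and 1490 to 304 and 497. The replicate block left 18 and 33 between the control groups. Leaving out single libraries gave 3 and 1 (without AHR CKO control replicate 3) to 399 and 1029 (without AHR CKO cuprizone replicate 1) there. No gene named changed direction with a call on either side.

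The replicate numbers did not pair the samples. Deviations of same-numbered samples correlated between -0.34 and 0.25, 3 of 18 pairs over 0.1, and 3 of 12 samples correlated best with their own number. With the replicate block, fatty acid enzymes lower between the control groups went from 2 to 0, and between the cuprizone groups sterol enzymes higher went from 6 to 2, sterol enzymes lower from 1 to 0 and fatty acid enzymes lower from 2 to 0. Searching the whole promoter stretch changed 3 motif counts by 1 promoter each, CCAAT in the fatty acid enzymes (5 of 9) and GGGCGG and CACGTG in the regulators (6 of 7 and 3 of 7). Groups of 3 and a depth known only roughly limit small differences, and values that missed the threshold are not shown to be equal.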
